A study of Mus musculus with 18 samples.

Results

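The genes described here are 35 mouse genes of the integrated stress response that runs through the transcription factor ATF4. They were chosen by symbol: Atf4 itself, its partner factors, and genes described as its targets were listed and each was matched to the Entrez gene identifier of the count tables. All 35 were found among the 24052 genes that each table lists. In mouse bone marrow-derived macrophages, messenger RNA was counted from 3′ ends in 18 libraries. All came from C57BL/6 marrow cells matured in culture with M-CSF (20 ng/ml), a growth factor under which they become macrophages. In experiment 1, 12 libraries of wild-type cells formed 4 groups of 3. Vehicle cells received vehicle for 12 h, compound cells received 0.25 mM dimethyl itaconate, a cell-permeable ester of the metabolite itaconate, for 12 h, LPS cells received vehicle for 12 h and then 100 ng/ml bacterial lipopolysaccharide (LPS) for 4 h, and compound plus LPS cells received both in that order. No matching 4 h step is recorded for cells without LPS, and the part of that time in the LPS comparisons was not tested. In experiment 2, 3 libraries of Irg1-/- cells, which lack the enzyme that makes itaconate, and 3 of wild-type cells were all kept for 24 h in interferon gamma (50 ng/ml) together with LPS (100 ng/ml); the treatment label names Irg1-/- cells for both, and the genotype label was used. How the Irg1 allele was made, and whether replicates were separate animals or cultures, is not given in the sources used here, so the p-values reflect only the spread among these libraries, and that may be technical.

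In the integrated stress response, kinases that sense amino acid shortage, misfolded protein in the endoplasmic reticulum (ER), viral RNA or haem shortage phosphorylate the translation factor eIF2. General protein synthesis then falls, while the Atf4 transcript, whose upstream reading frames normally hold it back, is translated more. Its protein level can therefore change with no change of its transcript, and transcript counts do not measure it. Together with C/EBP family partners, ATF4 raises genes for amino acid synthesis, amino acid uptake, tRNA charging and one-carbon metabolism, and also genes that end the response or, when it lasts, favour cell death. In macrophages some of these genes are also driven by inflammatory signals, such as Cebpb by LPS and Wars by interferons.

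ATF4 and its partners are known to bind the C/EBP-ATF response element, and the promoters of the genes were searched for it. The window was 250 bases before to 50 bases after each transcription start in the RefSeq promoter table (GRCm38.p6), which gives some genes more than 1 start, both strands were read, and 29 of the 35 genes had an entry. The core TTGCATCA (TGATGCAA on the other strand) was found for 7 of the 29 (24.1%), beside 279 of all 27025 genes with a promoter entry (1.03%). The looser form TGATGNAA (TTNCATCA on the other strand), which includes the core, was found for 10 of the 29 (34.5%), beside 1219 of all genes (4.51%). Since many of the genes were first described as ATF4 targets, these shares describe the list and are no independent result. Core matches lay in Aars, Atf3, Chac1, Herpud1, Nupr1, Pycr1 and Vldlr, and looser matches alone in Asns, Gars and Trib3. The 4 windows of 30 bases shown here are those of genes whose counts changed in a comparison given further on. Capitals mark the match, and each window is written 5′ to 3′ on the gene's strand.
Nupr1: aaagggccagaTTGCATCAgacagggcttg
Herpud1: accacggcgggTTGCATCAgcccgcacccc
Vldlr: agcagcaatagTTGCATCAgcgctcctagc
Trib3: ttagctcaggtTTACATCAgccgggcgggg
The Nupr1 window is chr7:126625562-126625591 on the minus strand, with its match 110 bases before the start. The Herpud1 window is chr8:94386306-94386335 on the plus strand, 112 bases before the start. The Vldlr window is chr19:27216809-27216838 on the plus strand, 200 bases before the downstream one of the 2 starts listed for the gene (27217020). The Trib3 window is chr2:152344028-152344057 on the minus strand, and its match begins 14 bases after the start. A match describes the letters and does not show that a factor binds there.

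Total counts per library ran from 955718 to 7629669 in experiment 1 and from 3088644 to 5491684 in experiment 2, and the 35 genes together held 0.168% to 0.289% and 0.343% to 0.383% of them. The LPS libraries stood apart. They held 3761119, 2294042 and 955718 counts in replicate order, and their log2 levels correlated with each other at 0.813 to 0.916, beside 0.94 to 0.973 within the other groups. In LPS replicate 3, Prdx1 alone took 17.6% of the counts, beside 3.81% and 3.28% in LPS replicates 1 and 2. No other library reached that share. Prdx1 took 8.7% to 14.1% in compound plus LPS libraries, 4.7% to 6.55% in compound libraries and 1.34% to 2.03% in vehicle libraries. Among genes for which the other libraries of the same group predicted 10 or more counts, 2.25% to 4.44% were at 0 in an LPS library, beside 0.0818% to 0.311% in the other libraries of experiment 1. Of the 35 genes, 10, 13 and 17 were at 0 in the LPS libraries and 3 to 5 in each other library of experiment 1. Macrophage markers were counted in every group, and 7 of the 8 in every library. Their summed level, before TMM scaling, in counts scaled to a common library total (CPM), was 8040 to 11000 in vehicle libraries, 3500 to 5060 in compound libraries, 2710 to 3840 in LPS libraries and 3240 to 4320 in those given both. Neutrophil and progenitor markers summed to 350 to 517, 179 to 320, 150 to 290 and 215 to 338 in the same order. After the TMM scaling used for the tests, the macrophage sums were 5470 to 7680, 3030 to 4050, 4700 to 4940 and 4050 to 5050, and the neutrophil and progenitor sums 265 to 352, 155 to 251, 249 to 361 and 271 to 395. Before TMM scaling, T, NK and B cell markers summed to at most 0.916, with Ncr1 at 0 in all 18 libraries. In experiment 1, dendritic cell markers summed to at most 8.08 and stromal markers to 21.9 to 77.6, and Flt3 was at 0 in all 18 libraries. In Irg1-/- and wild-type libraries, macrophage sums were 2180 to 2760 and 2240 to 2640, and neutrophil and progenitor sums 9.1 to 12.3 and 11.9 to 16.5. Dendritic cell sums there were 7.69 to 12.2 and 8.94 to 13.3, and stromal sums 9.47 to 17.7 and 9.25 to 19.5. The part of these differences in the results was not tested. In bulk samples, fewer cells of a type and less RNA per cell cannot be told apart.

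Of the 35 genes, 30 passed the filter on low counts in experiment 1 and 25 in experiment 2, and 22 changed in at least 1 comparison. The values below are CPM of the TMM-scaled library total, given in replicate order, and fold changes are log2 estimates ± standard error from edgeR's quasi-likelihood test, adjusted by the Benjamini-Hochberg method over all genes tested. Genes with an adjusted p under 0.05 are the ones called. The 5 genes not tested in experiment 1 were Ddit4, an mTORC1 inhibitor, with 0 to 8 counts a library, Phgdh, the first enzyme of serine synthesis, with 0 to 12, Cth, which makes cysteine, with 0 to 7, Stc2, a secreted glycoprotein, with 0 to 1, and Pycr1, a proline enzyme. Pycr1 was at 0 in all 18 libraries, which allows up to 3 counts, or 0.291 to 5.45 CPM in experiment 1 and 0.518 to 0.994 CPM in experiment 2, counting error only.

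**Figure D1:**
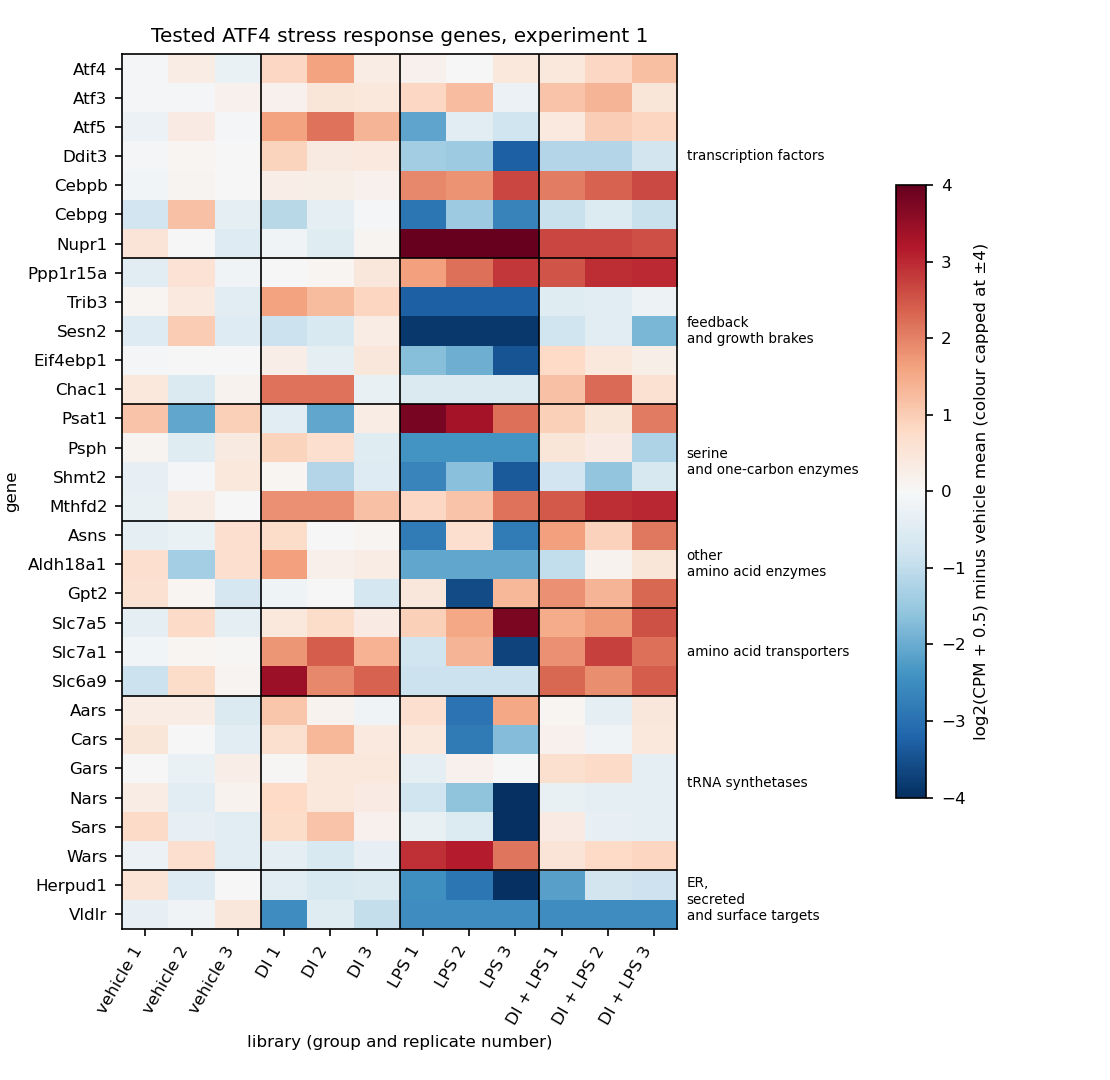
Level of the 30 tested genes in each library of experiment 1, as log2(CPM + 0.5) minus the mean of the 3 vehicle libraries, with genes in rows by role, libraries in columns by group, red above and blue below the vehicle mean (DI: dimethyl itaconate). Blue cells are densest in the LPS columns, where 10, 13 and 17 of the 35 genes were at 0, and the Nupr1 and Cebpb rows are red in all 6 libraries that received LPS.

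In resting macrophages the compound raised Atf5, a factor related to ATF4, 3.45-fold and Mthfd2, a mitochondrial one-carbon enzyme, 3.13-fold, and no tested gene of the list was called lower. The 2 of 30 genes called higher stand beside 1.33% of all genes tested, and the 0 called lower beside 1.51% (2.84% in either direction). DESeq2 called 4 higher and 0 lower, beside 2.99% and 3.37% of all genes. At an unadjusted p under 0.05, 7 genes were higher and 0 lower. No share of all genes was computed at that unadjusted threshold, here or further on. Such unadjusted counts therefore cannot be compared with all genes. The median log2 fold change of the 30 was 0.406, beside -0.0489 for all genes. In 9 of the 30 every compound library lay above every vehicle library, and in 1 every one lay below, beside 14.6% and 16% of all genes. The amino acid transporters Slc6a9 (3.77 ± 0.99, adjusted p = 0.0546) and Slc7a1 (2.01 ± 0.55, adjusted p = 0.0596) were just outside the threshold. Without LPS replicate 3, which enters this comparison through the shared estimate of spread, 5 genes were called higher, with Atf4, Slc7a1 and Slc6a9 added, and 0 lower, beside 4.27% and 3.28% of all genes tested. The Atf5 and Mthfd2 calls were each lost when vehicle replicate 1 or 3 or compound replicate 1 or 2 was left out, with adjusted p up to 0.13 and 0.11.

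LPS alone moved the list in both directions. Called higher were Nupr1, Cebpb, Ppp1r15a, Psat1, Mthfd2, Slc7a5 and Wars, and called lower were Ddit3, Cebpg, Trib3, Sesn2, Eif4ebp1, Psph, Shmt2, Aldh18a1, Nars, Herpud1 and Vldlr. These are 7 and 11 of 30 genes, beside 16% and 18.4% of all genes tested (34.3% in either direction). Of the 11, 5 were at 0 in all 3 LPS libraries, where the zeros described above were most frequent. Their part in the calls was not tested. The median log2 fold change was -0.883, the same with those 5 at their bound, and -0.364 with Chac1 and Slc6a9, whose counts allow no bound, also set to no change, beside -0.236 for all genes. Each of the 5 bounds lies below -0.883, so setting them could not move the median and was no check of it. In 7 genes every LPS library lay above and in 12 below every vehicle library, beside 16.6% and 27.4% of all genes. Of the 18 calls, 11 held in each alternative run. Psat1 and Psph were lost without LPS replicate 1 (adjusted p = 0.054 and 0.07). Shmt2 was lost without vehicle replicate 3 or LPS replicate 1 (up to 0.078). Aldh18a1 was lost without vehicle replicate 1 or 3 or LPS replicate 1 or 2 (up to 0.097). Nars was lost without vehicle replicate 1 or LPS replicate 2 and Slc7a5 without vehicle replicate 1 or 3 or LPS replicate 3, and both with the 2 compared groups fitted alone (each up to 0.1). Vldlr was lost in 11 of 16 alternatives (up to 0.13). With only the 2 groups fitted, 24 genes passed the filter, 6 were called higher and 7 lower, beside 13.4% and 9.19% of all genes, and the median of the 24 was 0.104.

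In cells that went on to LPS, 8 genes of the list were higher with the compound than with LPS alone and 2 were lower. Atf5, Trib3, Sesn2, Eif4ebp1, Psph, Mthfd2, Slc7a1 and Slc6a9 were called higher and Nupr1 and Wars lower. These are 8 and 2 of 30 genes, beside 8.38% and 7.53% of all genes tested (15.9% in either direction). The median log2 fold change was 1.32, beside 0.1253 for all genes. Every compound plus LPS library lay above every LPS library in 17 genes and below in 3, beside 18.9% and 10.7% of all genes. The 17 include 6 genes at 0 in all LPS libraries (Trib3, Sesn2, Chac1, Psph, Aldh18a1 and Slc6a9). A gene at 0 there that the filter kept cannot lie below, so these 6 show no shift of the list. With the 6 at their bound the median was again 1.32, but each bound lies above that median, so this swap was no check of it. Of the 8 genes called higher, 4 (Trib3, Sesn2, Psph and Slc6a9) were at 0 in all LPS libraries and passed the filter through other groups. Replicate numbers paired the libraries of these 2 groups, and with that block 8 genes were again called higher, beside 7.65%, and 2 lower, beside 6.59%: Psph was lost (adjusted p = 0.051) and Cebpg was gained (1.55 ± 0.38, adjusted p = 0.012). With the LPS and compound plus LPS libraries fitted alone, those 4 did not pass the filter, and of the 21 genes that did, 1 (Eif4ebp1) was called higher, beside 3.18% of all genes, and 2 lower, beside 4.43%, with a median of 0.706. Calls that held in each alternative in which the gene was tested were Nupr1, Wars, Eif4ebp1 and Trib3.

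**Figure D2:**
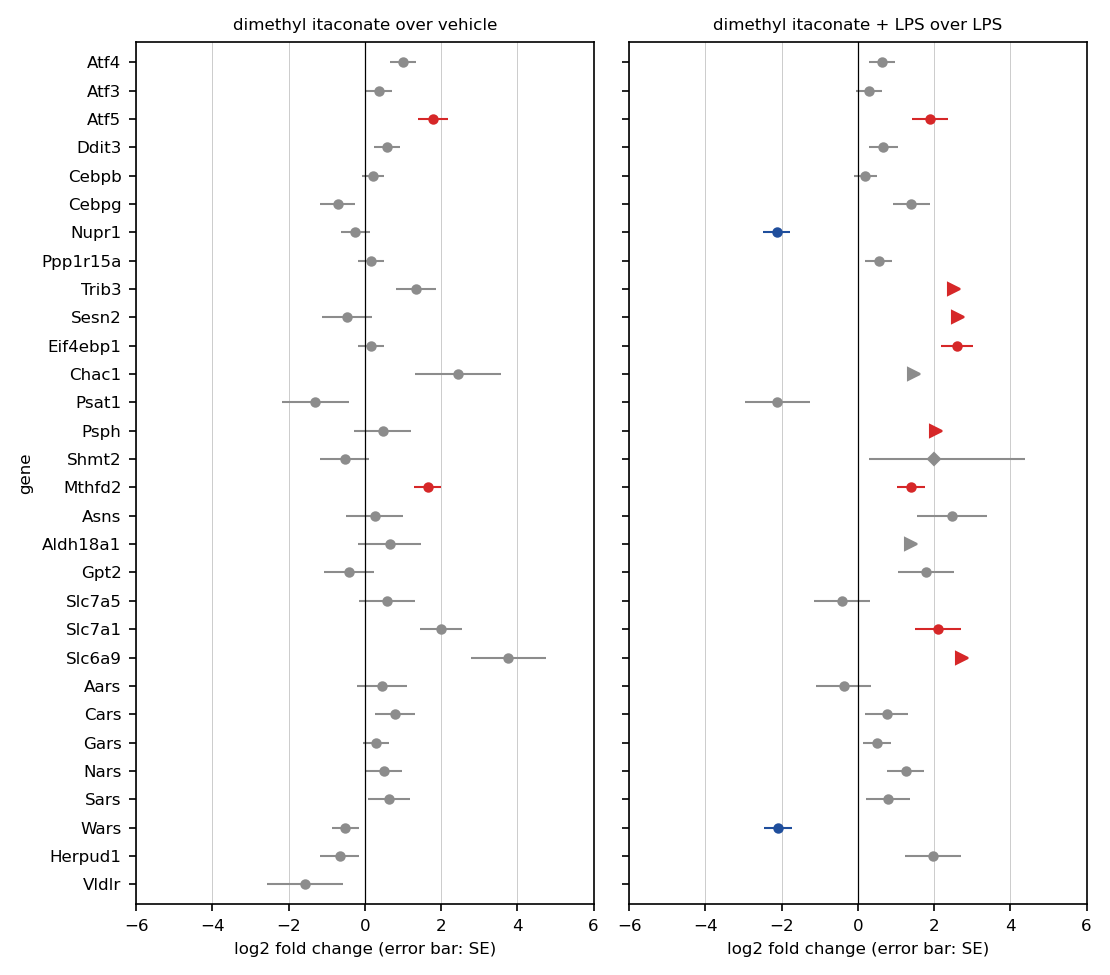
Effect of dimethyl itaconate on the 30 tested genes without LPS (left) and before LPS (right), as log2 fold change with standard error, red where called higher, blue where called lower and grey where not called. Triangles mark lower bounds of the change for genes at 0 in a whole group, the diamond with a 95% counting interval marks Shmt2, and no point is drawn for Vldlr on the right; Atf5 and Mthfd2 are red in both panels, while Nupr1 and Wars are blue on the right.

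Among cells treated with the compound, LPS raised Cebpb, Nupr1, Ppp1r15a, Mthfd2, Gpt2 and Wars and lowered Ddit3 and Trib3. These are 6 and 2 of 30 genes, beside 11.4% and 7.56% of all genes tested (18.9% in either direction). The median log2 fold change was -0.278, beside -0.0556 for all genes, and 9 genes had all compound plus LPS libraries above and 5 below all compound libraries, beside 22.3% and 22.3%. DESeq2, which uses other scaling factors, called 1212 genes higher and 1395 lower where edgeR called 1170 and 778, and 6 and 3 of the list. Trib3 was lost without any 1 library of either compared group or vehicle replicate 1 (adjusted p up to 0.15). Wars was lost without any 1 library of either group (up to 0.1), Gpt2 without any compound replicate or compound plus LPS replicate 1 or 3 (up to 0.11), and Mthfd2 without compound replicate 1 or 3 or compound plus LPS replicate 2 or 3 (up to 0.12). Mthfd2 was the gene called higher in each of the 4 comparisons of 2 groups, which share libraries with each other.

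**Figure D3:**
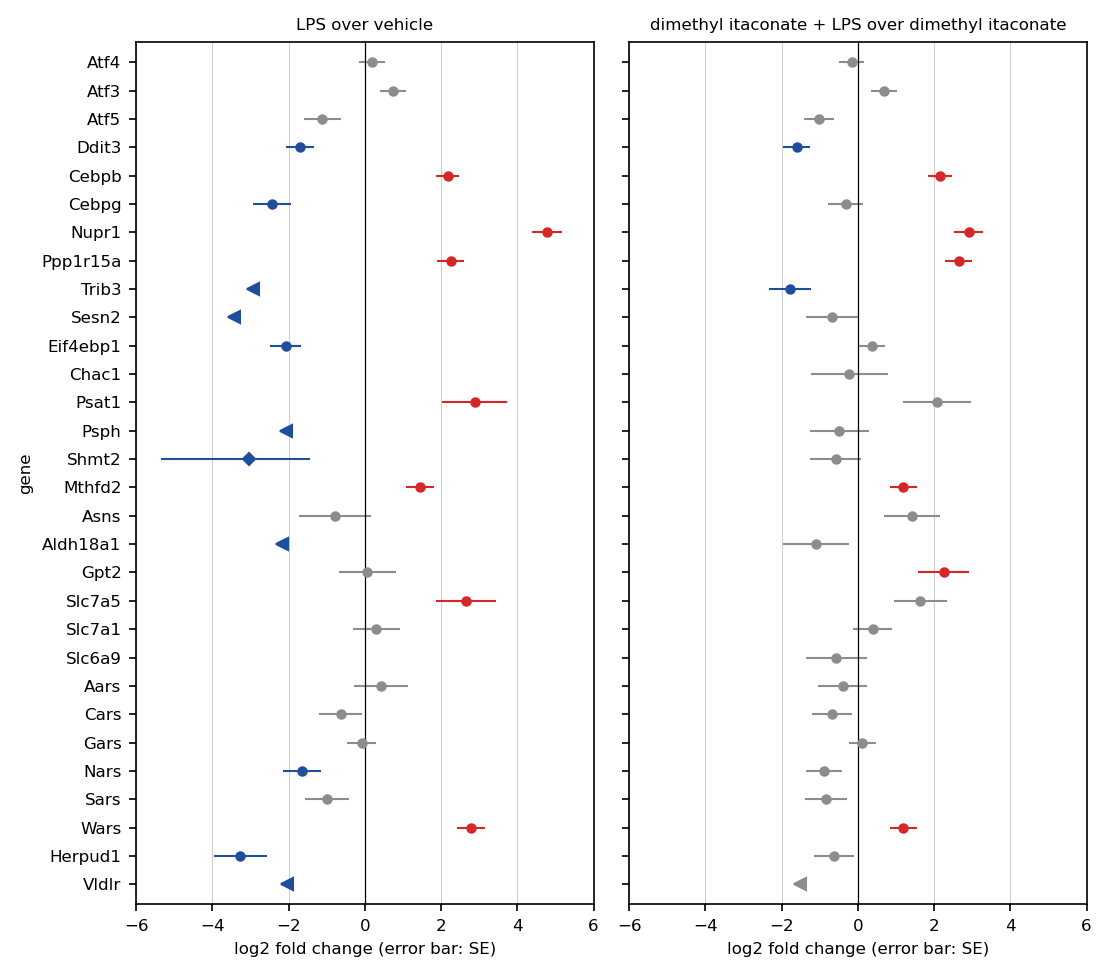
Effect of LPS on the 30 tested genes in vehicle cells (left) and in cells treated with dimethyl itaconate (right), as log2 fold change with standard error, red where called higher, blue where called lower and grey where not called. Triangles are bounds for genes at 0 in a whole group and the diamond carries a 95% counting interval. No point is drawn on the left for Chac1 and Slc6a9, whose counts allow no bound. On the left 11 genes are blue, and on the right 2, Ddit3 and Trib3.

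The difference between the LPS effects with and without the compound was tested as an interaction. It was called for Eif4ebp1, the translation repressor that binds eIF4E, whose LPS effect was higher by 2.44 ± 0.54 on the log2 scale with the compound (adjusted p = 0.0188). This is 1 of 30 genes, beside 1.39% of all genes called higher, and 0 were called lower, beside 1.52% (2.91% in either direction). At an unadjusted p under 0.05, 7 were higher and 2 lower. Nupr1 (-1.88 ± 0.51, adjusted p = 0.0523), Wars (-1.59 ± 0.50, adjusted p = 0.0958), Cebpg (2.11 ± 0.67, adjusted p = 0.0988) and Sesn2 (adjusted p = 0.0565) missed the threshold. DESeq2 called 2 genes higher, Eif4ebp1 and Sesn2, and 2 lower, Nupr1 and Wars, beside 4.09% and 3.75% of all genes. Without LPS replicate 3, Nupr1 (-2.0, adjusted p = 0.015) and Wars (-1.87, adjusted p = 0.012) were called as well, as was Sesn2 (adjusted p = 0.03). The Eif4ebp1 call was lost without vehicle replicate 1 or 3, compound replicate 1 or 2 or compound plus LPS replicate 1 (adjusted p up to 0.092).

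Among the transcription factors, the level of Atf4 itself (chromosome 15, 80255184 to 80257545, GRCm38) did not pass the test in any comparison. Atf4 levels were 241, 303 and 206 with vehicle, 438, 759 and 303 with the compound, 280.5, 249 and 330.4 with LPS and 330.3, 439 and 566 with compound plus LPS. The lowest compound library lay at the level of the highest vehicle library, and LPS libraries overlapped vehicle. Its log2 fold change was 1.00 ± 0.34, adjusted p = 0.146 for compound over vehicle, 0.19 ± 0.34, adjusted p = 0.698 for LPS over vehicle and 0.64 ± 0.34, adjusted p = 0.22 for compound plus LPS over LPS. Without LPS replicate 3 the first of these was 1.02 ± 0.30, adjusted p = 0.039. Atf5, an ATF4 relative that is itself translated more when eIF2 is phosphorylated, moved with the compound in resting and in LPS-treated cells. Atf5 levels were 10.98, 16.3 and 12.2 with vehicle, 40.7, 59.8 and 34.4 with the compound, 2.65, 9.54 and 7.26 with LPS and 17.1, 26.0 and 23.9 with compound plus LPS. Compound libraries lay above all vehicle libraries, and compound plus LPS libraries above all LPS libraries. The differences were 1.79 ± 0.40, adjusted p = 0.0176 and 1.89 ± 0.48, adjusted p = 0.012. With only the LPS and compound plus LPS libraries fitted, the second of these was lost (adjusted p = 0.10). LPS libraries lay below vehicle, but that difference was not called (-1.11 ± 0.48, adjusted p = 0.0803). DESeq2 called it (-1.22 ± 0.49, adjusted p = 0.032), as did edgeR without LPS replicate 2 (adjusted p = 0.021). Compound plus LPS over compound was not called either. DESeq2 called it lower (-1.15 ± 0.40, adjusted p = 0.017), as did edgeR without LPS replicate 1, 2 or 3 (adjusted p up to 0.043). RLE scaling (adjusted p = 0.045) and the fit of only those 2 groups (adjusted p = 0.0086) did so too.

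Ddit3 encodes CHOP, the factor that ATF4 induces in prolonged stress. Ddit3 levels were 38.3, 41.1 and 38.6 with vehicle, 73.3, 50.9 and 51.7 with the compound, 14.6, 14.04 and 3.63 with LPS and 17.2, 17.1 and 23.3 with compound plus LPS. All libraries with LPS lay below all without it, whether or not the compound was given. It fell by LPS in vehicle cells (-1.70 ± 0.38, adjusted p = 0.00204) and in compound cells (-1.61 ± 0.35, adjusted p = 0.00261). The compound libraries lay above the groups they were compared with, but neither difference was called (0.58 ± 0.34, adjusted p = 0.485 and 0.67 ± 0.38, adjusted p = 0.257). Atf3, a stress-induced repressor also induced by Toll-like receptor signals, had levels of 210.0, 212 and 249.95 with vehicle, 253, 314 and 296 with the compound, 399, 530.0 and 191 with LPS and 497, 578 and 312 with compound plus LPS. LPS replicate 3 was the lowest of the 12 libraries and the other LPS libraries lay above all vehicle libraries. LPS over vehicle was 0.75 ± 0.34, adjusted p = 0.102, and without LPS replicate 3 it was 1.08 ± 0.27, adjusted p = 0.0038.

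Cebpb and Cebpg encode C/EBP factors that pair with ATF4, and they moved apart after LPS. Cebpb levels were 244, 283 and 264 with vehicle, 315, 308 and 297 with the compound, 997, 914 and 1663 with LPS and 1080, 1357 and 1650 with compound plus LPS. All 6 libraries with LPS lay above all 6 without. It rose with LPS in vehicle cells (2.17 ± 0.31, adjusted p = 2.58e-05) and in compound cells (2.15 ± 0.31, adjusted p = 4.47e-05), and the compound made no called difference (0.22 ± 0.29, adjusted p = 0.813 and 0.20 ± 0.29, adjusted p = 0.7). Cebpg levels were 108, 418 and 142 with vehicle, 85.7, 143 and 177 with the compound, 24.5, 67.9 and 29.04 with LPS and 99.0, 126 and 99.0 with compound plus LPS. LPS libraries lay below every other library, and vehicle replicate 2 was the highest of all. It fell with LPS in vehicle cells (-2.43 ± 0.50, adjusted p = 0.00104), where the 2 groups did not overlap. The call for compound plus LPS over LPS was missed (1.39 ± 0.49, adjusted p = 0.0602) and made with the replicate block given above. Nupr1 encodes a small stress-induced chromatin protein. Nupr1 levels were 8.06, 5.44 and 3.68 with vehicle, 4.94, 3.80 and 5.87 with the compound, 223, 113 and 145 with LPS and 37.6, 37.9 and 34.8 with compound plus LPS. LPS libraries were the highest, compound plus LPS libraries lay below them and above the rest, and vehicle and compound libraries overlapped. LPS raised it 27.5-fold in vehicle cells (4.78 ± 0.40, adjusted p = 5.34e-08) and 7.47-fold in compound cells (2.90 ± 0.37, adjusted p = 1.44e-05). The compound before LPS gave 4.38-fold less than LPS alone (-2.13 ± 0.35, adjusted p = 0.00048).

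**Figure D4:**
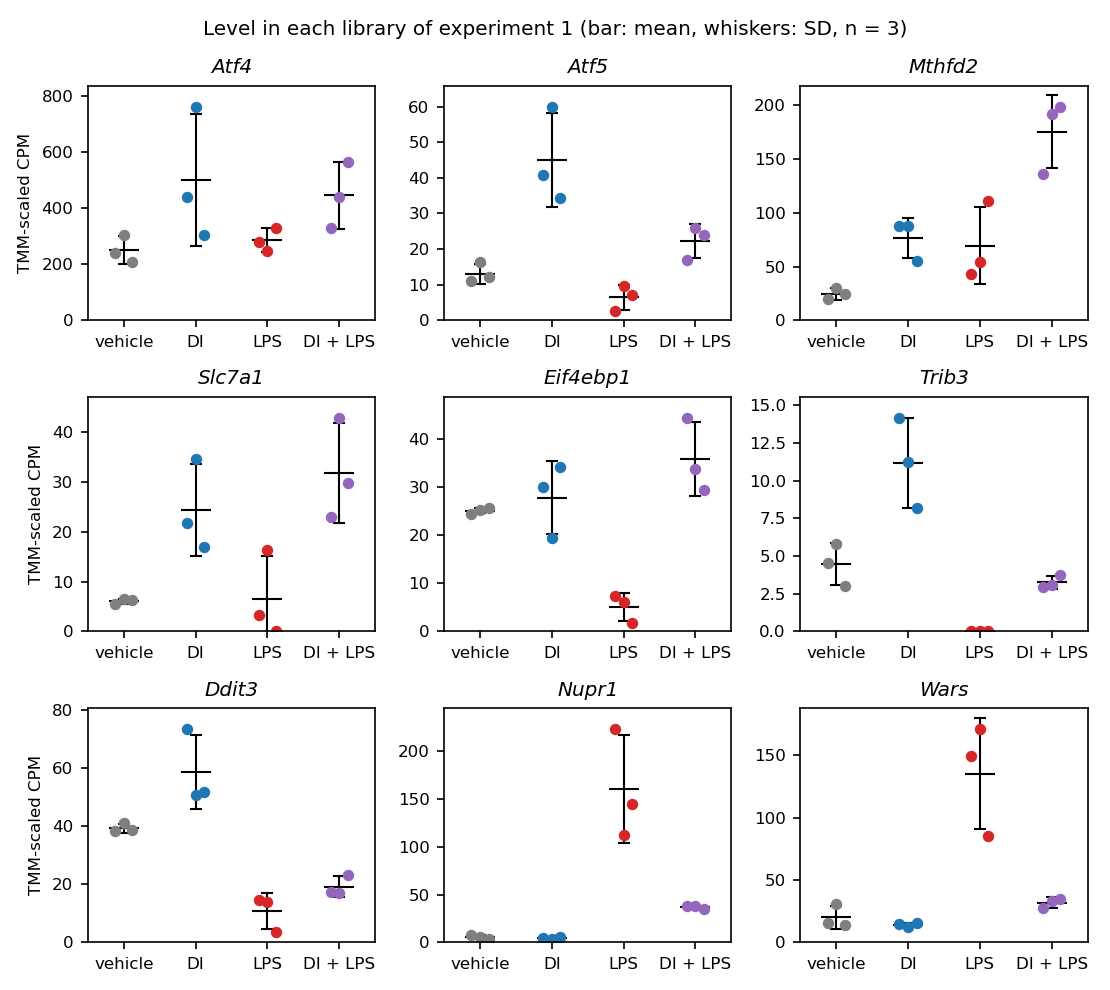
Level of 9 genes in each library of experiment 1 in CPM on linear axes from 0, with points for libraries, a bar for the mean and whiskers for the SD of 3 libraries, drawn down to 0 where they would pass below it (DI: dimethyl itaconate). Atf5 and Slc7a1 points are highest in the groups with the compound next to their controls, Mthfd2 is highest with both agents, Trib3 is at 0 in each LPS library, and Nupr1 and Wars are highest with LPS alone.

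The feedback and growth genes split between 1 that rose with LPS and 3 that fell. Ppp1r15a encodes GADD34, the phosphatase subunit that removes the phosphate from eIF2. Ppp1r15a levels were 24.9, 50.7 and 30.7 with vehicle, 34.5, 35.8 and 46.8 with the compound, 108, 157 and 243 with LPS and 197, 265 and 269 with compound plus LPS. All 6 libraries with LPS lay above the other 6. It rose with LPS in vehicle cells (2.25 ± 0.36, adjusted p = 0.000101) and in compound cells (2.64 ± 0.36, adjusted p = 2.79e-05), and was not called for the compound (0.15 ± 0.34, adjusted p = 0.9 and 0.54 ± 0.34, adjusted p = 0.314). Trib3, a pseudokinase that inhibits ATF4 and CHOP activity, had levels of 4.57, 5.78 and 3.04 with vehicle, 14.1, 11.2 and 8.18 with the compound, 0 in each library with LPS and 2.94, 3.06 and 3.73 with compound plus LPS. With 0 counts in the LPS libraries, it was at least 7.60-fold lower than with vehicle (adjusted p = 0.00096) and at least 5.70-fold higher with compound plus LPS than with LPS (adjusted p = 0.0057), with 3 counts over the whole group as the floor. Compound libraries lay above vehicle libraries without a call (1.34 ± 0.53, adjusted p = 0.241), and LPS lowered it among compound cells (-1.78 ± 0.55, adjusted p = 0.0305).

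Sesn2, which restrains mTORC1 when amino acids are short, had levels of 4.57, 14.3 and 4.64 with vehicle, 3.53, 4.29 and 8.49 with the compound, 0 in each library with LPS and 3.72, 4.90 and 1.55 with compound plus LPS. Compound and vehicle libraries overlapped. Against the same floor it was at least 10.8-fold lower with LPS than with vehicle (adjusted p = 0.00137), and at least 6.16-fold higher with compound plus LPS than with LPS (adjusted p = 0.017, or 0.061 without LPS replicate 1). Eif4ebp1 (chromosome 8, 27260327 to 27275656) had levels of 24.5, 25.2 and 25.6 with vehicle, 30.01, 19.3 and 34.2 with the compound, 7.28, 6.18 and 1.82 with LPS and 44.3, 33.7 and 29.5 with compound plus LPS. LPS libraries were below every other library, and compound libraries overlapped both vehicle and compound plus LPS libraries. It fell with LPS in vehicle cells (-2.08 ± 0.42, adjusted p = 0.000842), did not pass the test in compound cells (0.36 ± 0.34, adjusted p = 0.53), and was 6.05-fold higher with compound plus LPS than with LPS (2.60 ± 0.42, adjusted p = 0.000401). The compound alone gave 0.15 ± 0.34, adjusted p = 0.9. Chac1, a glutathione-degrading enzyme and a marker of ATF4 activity, had levels of 0.486, 0 and 0.320 with vehicle, 2.82, 2.81 and 0.105 with the compound, 0 in each library with LPS and 1.18, 3.06 and 0.621 with compound plus LPS. Its counts were 0 to 24 a library, compound replicates 1 and 2 were highest without LPS, and no comparison passed the test (compound over vehicle 2.44 ± 1.13, adjusted p = 0.348).

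Within the serine and one-carbon pathway, Mthfd2 and Psat1 rose with LPS while Psph and Shmt2 fell. Mthfd2 (chromosome 6, 83305704 to 83326011), the mitochondrial methylene-tetrahydrofolate dehydrogenase, had levels of 19.4, 29.9 and 24.5 with vehicle, 87.3, 87.7 and 54.9 with the compound, 43.4, 54.5 and 111 with LPS and 136, 192 and 198 with compound plus LPS. Vehicle libraries were the lowest and compound plus LPS libraries the highest, while compound and LPS libraries overlapped in between. It rose with the compound in resting cells (1.65 ± 0.36, adjusted p = 0.0151) and before LPS (1.39 ± 0.36, adjusted p = 0.0151), and with LPS in vehicle cells (1.45 ± 0.37, adjusted p = 0.00546) and in compound cells (1.19 ± 0.35, adjusted p = 0.0218). The interaction was not called (-0.26 ± 0.50, adjusted p = 0.845). The call before LPS was lost without compound plus LPS replicate 2 and with only those 2 groups fitted (adjusted p up to 0.084).

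Psat1, the aminotransferase of serine synthesis, had levels of 4.08, 0 and 3.52 with vehicle, 1.06, 0 and 2.10 with the compound, 28.8, 20.8 and 9.08 with LPS and 3.53, 2.45 and 8.38 with compound plus LPS. LPS libraries lay above all others. It rose with LPS (2.88 ± 0.86, adjusted p = 0.0146), and compound plus LPS libraries lay below LPS libraries without a call (-2.11 ± 0.85, adjusted p = 0.101). Without LPS replicate 3 the latter was -2.41 ± 0.80, adjusted p = 0.039. Psph, the phosphatase that ends serine synthesis, had levels of 2.33, 1.36 and 2.88 with vehicle, 4.35, 3.63 and 1.36 with the compound, 0 in each library with LPS and 3.14, 2.75 and 0.621 with compound plus LPS. It was at least 4.21-fold lower with LPS than with vehicle (adjusted p = 0.0178) and at least 4.16-fold higher with compound plus LPS than with LPS (adjusted p = 0.0369, lost in 9 of 16 alternatives). Shmt2, the mitochondrial serine hydroxymethyltransferase, had levels of 3.59, 4.42 and 6.40 with vehicle, 4.94, 1.82 and 3.15 with the compound, 0.331, 1.12 and 0 with LPS and 2.55, 1.22 and 2.79 with compound plus LPS. The LPS libraries held 3 counts in all and the vehicle libraries 90, a depth-scaled ratio of 0.121 (95% counting interval 0.0246 to 0.366, adjusted p = 0.0184). Compound plus LPS over LPS gave a ratio of 4.00, interval 1.23 to 20.7 (adjusted p = 0.207).

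Of the other amino acid enzymes, Asns, which makes asparagine, is a textbook ATF4 target and passed the test only in the alternatives given below. Asns levels were 2.14, 2.38 and 4.96 with vehicle, 5.30, 2.97 and 3.15 with the compound, 0, 5.05 and 0 with LPS and 10.2, 6.12 and 14.6 with compound plus LPS. Only 1 of the LPS libraries held counts, and compound plus LPS libraries lay above LPS and compound libraries. Compound plus LPS over LPS was 2.47 ± 0.92, adjusted p = 0.079, LPS over vehicle -0.78 ± 0.95, adjusted p = 0.559 and compound over vehicle 0.26 ± 0.75, adjusted p = 0.924. LPS replicate 2 held all 9 LPS counts of this gene, and without it the difference from compound plus LPS was called (adjusted p = 0.0033). LPS over vehicle (adjusted p = 0.014) and the interaction (adjusted p = 0.029) were then called as well. With all libraries, DESeq2 called compound plus LPS over LPS (2.41 ± 0.86, adjusted p = 0.028), as did edgeR with no filter (adjusted p = 0.022). Compound plus LPS over compound was called higher with only those 2 groups fitted (1.41 ± 0.43, adjusted p = 0.016). Gpt2, the mitochondrial alanine aminotransferase, had levels of 8.55, 5.78 and 3.20 with vehicle, 4.82, 5.45 and 3.15 with the compound, 7.62, 0 and 14.5 with LPS and 20.6, 14.7 and 28.6 with compound plus LPS. Compound plus LPS libraries were the highest, and LPS replicate 2 was at 0. It rose with LPS in compound cells (2.25 ± 0.66, adjusted p = 0.0222) and was not called in vehicle cells (0.07 ± 0.76, adjusted p = 0.958), but the interaction was not called either (2.19 ± 0.99, adjusted p = 0.251). Aldh18a1, which starts proline synthesis, had levels of 2.91, 0.340 and 2.88 with vehicle, 6.12, 1.98 and 2.10 with the compound, 0 in each library with LPS and 0.588, 1.84 and 2.48 with compound plus LPS. It was at least 4.49-fold lower with LPS than with vehicle (adjusted p = 0.0284), and compound plus LPS lay at least 2.62-fold above LPS without a call (adjusted p = 0.0853).

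Of the 3 amino acid transporters, Slc7a1 and Slc6a9 moved with the compound and Slc7a5 with LPS. Slc7a1, the cationic amino acid importer that supplies arginine, had levels of 5.54, 6.46 and 6.24 with vehicle, 21.8, 34.7 and 16.9 with the compound, 3.31, 16.3 and 0 with LPS and 22.9, 42.8 and 29.8 with compound plus LPS. Compound libraries lay above vehicle libraries, compound plus LPS libraries lay above LPS libraries, and LPS libraries ranged from 0 to above the vehicle level. Before LPS the compound raised it 4.26-fold (2.09 ± 0.60, adjusted p = 0.0244), and in resting cells it missed the threshold (2.01 ± 0.55, adjusted p = 0.0596), passing it by DESeq2 (adjusted p = 0.008) and without LPS replicate 3 (2.03 ± 0.43, adjusted p = 0.0042). The call before LPS was lost without LPS replicate 1, compound plus LPS replicate 2 or 3, and with only those 2 groups fitted (adjusted p up to 0.14). Slc6a9, the glycine importer GlyT1, had levels of 0, 1.02 and 0.480 with vehicle, 9.18, 2.97 and 4.19 with the compound, 0 in each library with LPS and 3.92, 2.75 and 4.35 with compound plus LPS. Vehicle libraries held 6 counts in all, and each compound library lay above them. The compound difference in resting cells was 3.77 ± 0.99, adjusted p = 0.0546, called without LPS replicate 3 (adjusted p = 0.015). Compound plus LPS was at least 6.62-fold above LPS (adjusted p = 0.0257, up to 0.074 without LPS replicate 1 or 2 or compound plus LPS replicate 1 or 3). Slc7a5, the large neutral amino acid transporter LAT1, had levels of 1.26, 3.40 and 1.28 with vehicle, 2.59, 3.30 and 2.41 with the compound, 3.97, 6.18 and 30.9 with LPS and 5.88, 7.04 and 13.0 with compound plus LPS. Every LPS library lay above every vehicle library, and LPS replicate 3, with 17 counts, was the highest by far. It rose with LPS (2.64 ± 0.79, adjusted p = 0.0147), but without LPS replicate 3 the value was 1.48 ± 0.70, adjusted p = 0.10, and the compound made no called difference (0.59 ± 0.73, adjusted p = 0.796 and -0.42 ± 0.72, adjusted p = 0.745).

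Of the 6 tRNA synthetases, Wars rose and Nars fell with LPS, Cars and Sars were called only in alternatives, and Aars and Gars passed no test. Wars, which charges tRNA with tryptophan and is known to be induced by interferon, had levels of 15.9, 30.9 and 13.9 with vehicle, 14.5, 12.2 and 15.2 with the compound, 149, 171 and 85.3 with LPS and 27.2, 33.4 and 35.1 with compound plus LPS. LPS libraries lay far above all others, and compound plus LPS libraries above compound libraries. LPS raised it 6.84-fold in vehicle cells (2.77 ± 0.37, adjusted p = 1.46e-05) and 2.27-fold in compound cells (1.19 ± 0.36, adjusted p = 0.0245), and compound plus LPS was 4.28-fold below LPS (-2.10 ± 0.36, adjusted p = 0.000721). The compound alone gave -0.51 ± 0.35, adjusted p = 0.588. Nars, the asparaginyl-tRNA synthetase, had levels of 252, 148 and 226 with vehicle, 356, 274 and 254 with the compound, 117, 65.7 and 7.26 with LPS and 165, 157 and 155 with compound plus LPS. LPS libraries lay below all others, with 4 counts in replicate 3. It fell with LPS (-1.65 ± 0.50, adjusted p = 0.0157), and compound plus LPS lay above LPS without a call (1.25 ± 0.49, adjusted p = 0.0955). That difference was called with no filter (adjusted p = 0.0085) and without LPS replicate 1 (adjusted p = 0.017). Compound plus LPS over compound was called lower without LPS replicate 3 (adjusted p = 0.015) and with only those 2 groups fitted (adjusted p = 0.006). For Aars, Cars, Gars and Sars, which charge alanine, cysteine, glycine and serine, the log2 fold changes of compound over vehicle lay between 0.30 and 0.79, those of compound plus LPS over LPS between -0.37 and 0.78 and those of LPS over vehicle between -0.98 and 0.42. Without LPS replicate 1, Cars was called lower for LPS over vehicle (adjusted p = 0.0034) and higher for compound plus LPS over LPS (adjusted p = 0.0056). Sars was called lower for LPS over vehicle with no filter (adjusted p = 0.045). It was also lower for compound plus LPS over compound with only those 2 groups fitted (adjusted p = 0.028).

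The ER and surface targets fell with LPS. Herpud1, a protein of ER-associated degradation, had levels of 16.9, 7.82 and 11.2 with vehicle, 8.24, 7.27 and 7.44 with the compound, 1.66, 1.12 and 0 with LPS and 2.16, 6.73 and 6.21 with compound plus LPS. All 6 libraries with LPS lay below the other 6, and compound plus LPS libraries lay above LPS libraries. It fell with LPS in vehicle cells (-3.26 ± 0.70, adjusted p = 0.00161), was not called for LPS in compound cells (-0.63 ± 0.53, adjusted p = 0.477), and compound plus LPS over LPS missed the threshold (1.97 ± 0.74, adjusted p = 0.079). Vldlr, a lipoprotein receptor induced in ER stress, had levels of 1.75, 2.04 and 3.36 with vehicle, 0, 1.49 and 0.944 with the compound, 0 in each library with LPS and 0 in each library with compound plus LPS. No library with LPS held a count. It was at least 4.12-fold lower with LPS than with vehicle (adjusted p = 0.0444). Herpud1, Nupr1 and Vldlr, whose promoter windows hold the core printed above, thus did not move alike: Nupr1 rose with LPS and the other two fell.

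The other genes of the response did not move as one group either. Of 15 genes for eIF2 kinases, translation factors and other eIF2 machinery, none was called for the compound in resting cells by edgeR or DESeq2. By edgeR this stands beside 1.33% of all genes called higher and 1.51% lower. At an unadjusted p under 0.05, 2 of the 15 were higher and 1 lower. LPS raised 3 and lowered 2, beside 16% and 18.4% of all genes tested. Among them Eif2ak2, the double-stranded RNA kinase PKR, rose (3.34 ± 0.38, adjusted p = 2.62e-06), as did Ppp1r15b, the constitutive phosphatase subunit (3.11 ± 0.30, adjusted p = 2.83e-07). Eif2ak4, the amino acid sensor GCN2, fell (-3.76 ± 0.75, adjusted p = 0.000764), and Eif2ak3, the ER stress kinase PERK, was at 0 in each LPS library, at least 14.6-fold lower (adjusted p = 0.000278). Compound plus LPS over LPS gave 3 higher and 2 lower, beside 8.38% and 7.53% of all genes, with Eif2ak4 (3.18 ± 0.76, adjusted p = 0.00864) and Eif2ak3 (at least 4.00-fold, adjusted p = 0.0147) higher and Ppp1r15b lower (-1.90 ± 0.28, adjusted p = 0.000196). Eif2ak3 was at 7.58, 9.52 and 8.49 CPM with vehicle and 1.18, 2.75 and 3.42 with compound plus LPS.

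Of 21 other described ATF4 targets, 18 were tested, and the compound raised 2 in resting cells, beside 1.33% of all genes, lowering none, beside 1.51% (edgeR; 0 lower at an unadjusted p under 0.05 and by DESeq2). Slc7a11, the cystine importer, which is also an NRF2 target, had levels of 4.66, 4.08 and 8.01 with vehicle, 58.5, 45.1 and 115 with the compound, 123, 139 and 38.1 with LPS and 896, 733 and 779 with compound plus LPS. It rose in each step, with the compound (3.68 ± 0.47, adjusted p = 0.000243), with LPS (4.17 ± 0.49, adjusted p = 3.11e-06) and with the compound before LPS (2.97 ± 0.44, adjusted p = 0.000197). Eprs, a tRNA synthetase for glutamate and proline, rose with the compound as well (1.76 ± 0.38, adjusted p = 0.0141). Compound plus LPS over LPS gave 7 higher and 1 lower, beside 8.38% and 7.53% of all genes, among them Gdf15, a secreted stress cytokine (3.97 ± 0.51, adjusted p = 4.75e-05), and Sqstm1, an autophagy receptor that is also an NRF2 target (2.86 ± 0.34, adjusted p = 2.48e-05), with Jdp2, an AP-1 repressor, lower (-2.78 ± 0.42, adjusted p = 0.000239). The interaction was called for Gdf15 (3.13 ± 0.65, adjusted p = 0.0131) and Jdp2 (-2.85 ± 0.59, adjusted p = 0.0131), beside 2.91% of all genes. LPS over vehicle gave 3 higher and 5 lower, beside 16% and 18.4% of all genes, led by Jdp2 (4.64 ± 0.46, adjusted p = 4.82e-07) and Slc7a11 upward and Gadd45a, a growth arrest gene, downward (-2.91 ± 0.36, adjusted p = 6.11e-06).

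Of 8 further cytosolic tRNA synthetases, none was called for the compound in resting cells or before LPS by edgeR. Among all genes, 1.33% were called higher and 1.51% lower in resting cells, and 8.38% and 7.53% before LPS. At an unadjusted p under 0.05, these were 0 higher and 1 lower, and 1 higher and 2 lower. DESeq2 called none in resting cells, beside 2.99% of all genes higher and 3.37% lower. Before LPS it called 0 higher and 1 lower, beside 10.4% and 10.8% of all genes. LPS raised 1, Rars (1.83 ± 0.31, adjusted p = 0.000197), and lowered 1, Qars (-1.65 ± 0.55, adjusted p = 0.0264), beside the same 16% and 18.4% of all genes. Of 16 genes of the ATF6 and XBP1 arms of the ER response, the compound raised Calr, an ER chaperone (1.67 ± 0.34, adjusted p = 0.00953), and Hyou1, another (1.61 ± 0.40, adjusted p = 0.0374), in resting cells, beside 1.33% of all genes. Before LPS it raised Calr (1.42 ± 0.34, adjusted p = 0.00833) and Ern1, the sensor IRE1 (2.77 ± 0.50, adjusted p = 0.00119), beside 8.38% of all genes. LPS raised 3, with Hspa5, the chaperone BiP, first (1.63 ± 0.29, adjusted p = 0.000321), and lowered 2, with Ern1 first (-4.42 ± 0.49, adjusted p = 1.58e-06), beside 16% and 18.4% of all genes.

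Acod1, the current symbol of Irg1, checks the genotype labels of experiment 2 and was at 28.4, 14.8 and 31.4 CPM in the Irg1-/- libraries and at 4131, 4665 and 4225 in wild type (-7.43 ± 0.32, adjusted p = 4.8e-07). After 24 h of LPS and interferon gamma, edgeR called no gene of the list between Irg1-/- and wild-type cells without the replicate block, and 1, Herpud1, lower with it. Without the block these are 0 of 25 tested genes in each direction, beside 0.0105% of all genes called higher and 0.0527% called lower (0.0632% in either direction). At an unadjusted p under 0.05, 0 were higher and 2 lower. DESeq2 called none, beside 0.137% of all genes higher and 0.242% lower. The median log2 fold change was -0.12, beside 0.0103 for all genes, and the 25 values lay between -1.30 and 0.46. Knockout libraries lay all above wild type in 1 gene and all below in 5, beside 6.13% and 7.23% of all genes.

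Herpud1 levels were 1.52, 1.85 and 6.22 in Irg1-/- and 5.97, 8.61 and 9.71 in wild type. Knockout replicates 1 and 2 were below all wild-type libraries and replicate 3 lay among them. The difference was -1.30 ± 0.50, adjusted p = 0.61. Same-numbered libraries of the 2 genotypes deviated together, and with the replicate number as a block Herpud1 was called lower (-1.41 ± 0.41, adjusted p = 0.028). That is 1 of 25 genes, beside 3.36% of all genes called lower and 2.9% called higher with the block. Aars levels were 29.9, 24.6 and 24.0 in Irg1-/- and 40.1, 34.8 and 36.9 in wild type. The groups did not overlap, and the difference was not called (-0.51 ± 0.20, adjusted p = 0.63, or 0.058 with the block).

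Other genes described in experiment 1 were measured here as follows, and none was called with or without the block. Atf4 was at 325, 353 and 448 CPM in Irg1-/- and 401, 369 and 453 in wild type (-0.12 ± 0.19, adjusted p = 0.973). Mthfd2 was at 134, 177 and 121 and 129.9, 170.3 and 122 (0.03 ± 0.21, adjusted p = 0.991), and Wars at 64.0, 63.5 and 76.7 and 66.0, 66.3 and 67.3 (0.03 ± 0.18, adjusted p = 0.991). These genotypes overlapped for each of the 3 genes. Ddit3 was at 82.1, 72.8 and 82.9 and 97.1, 86.1 and 90.3 (-0.20 ± 0.18, adjusted p = 0.942), and Trib3 at 9.33, 10.6 and 6.22 and 14.9, 10.8 and 10.6 (-0.48 ± 0.30, adjusted p = 0.858). Knockout libraries lay below wild type for both, without a call. Atf3 was at 864, 765 and 823 and 1004, 884 and 928 (-0.20 ± 0.17, adjusted p = 0.94), and Asns at 3.05, 2.12 and 5.70 and 3.65, 3.51 and 5.96 (-0.26 ± 0.46, adjusted p = 0.976). The genotypes did not overlap for Atf3 and overlapped for Asns. Slc7a5, at 1.71, 2.12 and 0.691 in Irg1-/- and 2.65, 3.19 and 0.221 in wild type, and Chac1, at 0 to 2 counts a library, were not tested, nor were Shmt2, Slc6a9, Vldlr and the 5 genes left out in experiment 1. Of the other lists, edgeR without the block and DESeq2 called none: 0 of 15 eIF2 genes, 0 of 17 tested ATF4 targets, 0 of 8 synthetases and 0 of 16 ER response genes. Among all genes, edgeR called 0.0105% higher and 0.0527% lower, and DESeq2 0.137% and 0.242%. At an unadjusted p under 0.05 these lists held 0, 2 lower, 2 higher and 1 lower.

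With the replicate block, an alternative chosen for these lists after seeing the data and fitted by edgeR with 2 residual degrees of freedom, 3 of the 17 ATF4 targets were lower in Irg1-/- cells, 1 of the 8 synthetases was higher, 1 of the 16 ER response genes was lower and 0 of the 15 eIF2 genes were called, beside the 2.9% of all genes called higher and 3.36% called lower given above. The cystine importer Slc7a11 was at 45.3, 15.6 and 25.9 CPM in Irg1-/- and 88.8, 59.0 and 57.2 in wild type (-1.28 ± 0.16, adjusted p = 2e-07 with the block and 0.389 without). Sqstm1 was at 527, 387 and 412 and 784, 529 and 656 (-0.57 ± 0.09, adjusted p = 4.5e-05 with the block and 0.572 without). The ER chaperone cofactor Dnajb9 was at 16.0, 15.6 and 17.1 and 28.2, 28.4 and 26.7 (-0.77 ± 0.19, adjusted p = 0.0092 with the block and 0.341 without). For these 3 genes every knockout library lay below every wild-type library. Gdf15 (-0.39 ± 0.12, adjusted p = 0.0459) and Hars, the histidine synthetase (0.54 ± 0.11, adjusted p = 0.000838), were also called with the block, and their genotypes overlapped. Of the 8 macrophage markers, Itgam and C1qa were called higher and Cd68 and Lyz2 lower in the same fit, and their part in these results was not tested.

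**Figure D5:**
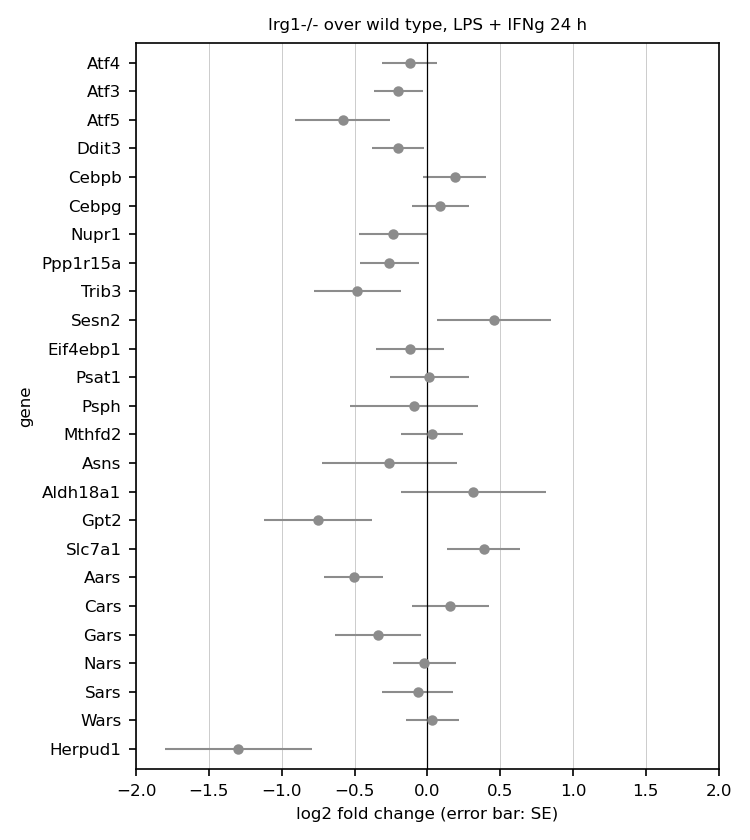
Log2 fold change of the 25 tested genes in Irg1-/- over wild-type macrophages after LPS plus interferon gamma for 24 h, with standard error from edgeR; grey marks genes not called. The points lie between -1.30 (Herpud1) and 0.46 (Sesn2), and none was called.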

How the data were processed

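3′ end RNA libraries of 18 macrophage samples were made with barcoded oligo-dT primers and pooled on Actb, per the labels' protocols. STAR, HTSeq, DESeq2 and build mm10 are named without versions, per the submitters' processing notes; whether HTSeq used strand is not given in the sources used here, so reads of overlapping or antisense genes may be mixed. The authors deposited raw counts per Entrez gene, without molecular identifiers, so intervals and floors cover counting error only.

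Counts were fitted per experiment with edgeR 4.0.16 (R 4.3.3), after filterByExpr by group (minimum count 10) and TMM scaling, with a quasi-likelihood fit with 1 mean per group over 12 or 6 libraries (8 and 4 residual degrees of freedom), 2-sided F tests, and Benjamini-Hochberg adjustment over all 10285 and 9491 genes tested. Standard errors come from the fit, with a prior count of 0.125. For genes at 0 in a group, bounds were computed with 3 counts given to that group. Alternatives were RLE scaling, no filter, DESeq2 1.42.0, a replicate block, only the 2 compared groups, and each library left out. Same-numbered libraries counted as paired where the deviations of all 3 pairs correlated above 0.1: 0.383 to 0.486 in experiment 2, 0.122 to 0.21 for LPS and compound plus LPS. No 2 libraries of a group agreed within sampling noise (chi-square per degree of freedom at least 15).

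The 35 genes and the other lists were chosen with earlier results of these data known. Named with values per library were genes called in at least 1 comparison and, whatever their result, Atf4, Ddit3, Atf3, Trib3, Chac1, Asns, Mthfd2, Slc7a5 and Wars, with Acod1 as the check of genotype, and from each other list up to 4 called genes with the smallest p per comparison. Promoter sequences and coordinates come from RefSeq (GRCm38.p6).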

Additional observations from a re-analysis of the deposited data

Results flagged for a closer look

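Eif4ebp1 is listed because the test of the interaction itself passed the threshold: on the log2 scale, the LPS effect was 2.44 higher in cells given the compound than in vehicle cells (adjusted p = 0.0188). The LPS effect was -2.08 ± 0.42 in vehicle cells and 0.36 ± 0.34 in compound cells. LPS replicate 3 held 1 count of this gene, and without that library the interaction was 2.20 ± 0.48 (adjusted p = 0.0078). Over the alternatives run, the adjusted p lay between 0.00051 and 0.092, and the call was lost in 5 of those that leave out 1 library. Of the 30 genes tested, 1 was called for the interaction, beside 2.91% of all genes tested.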

How the results depend on the processing

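Genes at 0 in the 3 LPS libraries have bounds only, and the floor of 3 counts lay between 0.291 and 5.45 CPM in experiment 1. LPS replicate 1, with 3761119 counts and a floor of 0.993 CPM, held 10 of the 35 genes at 0. Vehicle replicate 2, with 2228760 counts and a floor of 1.02 CPM, held 5. These libraries differ in treatment as well as in depth, and the part of depth in the zeros was not tested. Of the calls of experiment 1, 11 of 18 held in each alternative for LPS over vehicle, 0 of 2 for compound over vehicle, 4 of 10 for compound plus LPS over LPS, 4 of 8 for compound plus LPS over compound and 0 of 1 for the interaction. Over the alternatives that leave out 1 library, single calls were kept 393 times and lost 75 times, and no called gene changed direction. With another scaling (RLE) the median of all genes moved from -0.0556 to -0.199 for compound plus LPS over compound, and that of the list to -0.417, with 1 gene lower for the interaction (beside 1.74% of all genes). Causes of the changes given here were not tested, except that fits of fewer groups or without the filter test other sets of genes.

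With no filter on low counts, 4 genes were higher for compound over vehicle (beside 1.62% of all genes) and 3 were higher and 1 lower for the interaction (1.62% and 1.79%), and the list's median was 0.87 for compound plus LPS over LPS and -0.233 for compound plus LPS over compound. DESeq2 gave 4 higher for compound over vehicle (2.99%) and 2 higher and 2 lower for the interaction (4.09% and 3.75%). With only the 2 compared groups, 7 genes were lower for LPS over vehicle (9.19% of all genes; median 0.104), 5 were higher for compound over vehicle (5.17%), 1 was higher for compound plus LPS over LPS (3.18%, median 0.706), and 5 were lower for compound plus LPS over compound (15.8%, median -0.238).

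With the replicate block, 1 gene was lower for compound plus LPS over compound (7.32% of all genes; median -0.21), 2 were higher for the interaction (1.05%) and 1, Herpud1, was lower in Irg1-/- cells (3.36%). Numbers paired the libraries in experiment 2 and for LPS and compound plus LPS. Other pairs of groups did not meet the rule for pairing, and 5 of the 15 such library pairs correlated above 0.1. Among them only vehicle and compound libraries matched best by number in 6 of 6, with correlations of 0.227, 0.236 and 0.0614. Whether the numbers pair those libraries is left undecided. The block also ended the Trib3 call (compound plus LPS over compound, adjusted p = 0.062), the Vldlr call (LPS over vehicle, adjusted p = 0.059) and the Psph call (compound plus LPS over LPS), and added Atf5 lower for LPS over vehicle (adjusted p = 0.045) and Cebpg higher for compound plus LPS over LPS and for the interaction (adjusted p = 0.045). It changed no other call of the list, and for compound plus LPS over LPS no call of the other lists. Over all genes of experiment 2, 275 were higher and 319 lower with the block, beside 1 and 5 without it.

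Leaving out 1 library gave these ranges. For compound over vehicle, 0 to 5 genes were higher (0.582% to 4.27% of all genes) and the median was 0.206 to 0.494. For LPS over vehicle the median was -1.392 to -0.515. For compound plus LPS over LPS, 5 to 9 genes were higher (4.71% to 10.4%) and the median was 1.053 to 1.345. For compound plus LPS over compound, 3 to 7 were higher (8.26% to 14.6%), 1 to 4 were lower (4.23% to 12.0%) and the median was -0.315 to 0.0. For the interaction, 0 to 3 were higher (0.492% to 3.26%), 0 to 2 lower (0.744% to 4.33%) and the median was 0.248 to 0.957. For Irg1-/- over wild type the median was -0.236 to -0.042. Of the tested genes that were not called, those that changed sign in at least 1 alternative numbered 9 of 28 for compound over vehicle, 5 of 12 for LPS over vehicle, 4 of 20 for compound plus LPS over LPS, 5 of 22 for compound plus LPS over compound, 11 of 29 for the interaction and 12 of 25 for Irg1-/- over wild type. Among the genes named whatever their result these were Asns for LPS over vehicle (-7.08, fitted against 0 counts and no measure of size, to 0.09), for compound over vehicle (-0.05 to 0.77) and for Irg1-/- over wild type (-0.74 to 0.06), Atf3 (-0.02 to 0.65) and Slc7a5 (-0.84 to 0.77) for compound plus LPS over LPS, Atf4 (-0.43 to 0.26) and Chac1 (-1.01 to 0.12) for compound plus LPS over compound, and Mthfd2 (-0.14 to 0.19) and Wars (-0.05 to 0.08) for Irg1-/- over wild type. For the interaction these were Atf4 (-0.62 to 0.07), Atf3 (-0.41 to 0.26), Ddit3 (-0.2 to 0.32), Mthfd2 (-0.47 to 0.15) and Slc7a5 (-1.51 to 0.15).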
